A study of Sus scrofa with 37 samples.

Results

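Injured skeletal muscle of the pig, sampled 48 h after a contusion, a blunt injury that crushes fibres without cutting the skin, was compared with control muscle of the same series. The animals were Bama minipigs, a small breed. The libraries were chosen by their titles, which gave 4 injured libraries at 48 h and 9 control libraries, 13 of the 37 in the series, and all 9411 genes tested were considered. The design text names 8 minipigs for the whole series and 4 biological replicates per time, but no label ties a library to an animal, so every p-value measures only the spread between libraries. The labels give mechanical damage as treatment even for the controls and do not say how control muscle was handled. Gene expression was measured by RNA sequencing of bulk tissue, and levels are in CPM, counts scaled to a common library size after TMM normalization. No gene length is available for these counts, so levels are compared between libraries and not between genes. Because the RNA came from whole tissue, fewer cells of a type and less RNA per cell cannot be told apart.

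After a contusion, damaged fibres leak and die, neutrophils enter first, and monocytes follow and become macrophages that clear debris. Macrophages then engulf membranes and lipid, which loads their lysosomes, while satellite cells, the muscle stem cells, divide and supply new nuclei. Fibres that have lost their nerve contact or are being rebuilt re-express subunits of the fetal acetylcholine receptor.

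The 4 libraries at 48 h did not behave alike, and this bears on every result below. Their log2 CPM over all genes correlated with the control mean at 0.828, 0.968, 0.884 and 0.983 for libraries 1, 2, 3 and 4, against 0.960 to 0.980 for each control with the mean of the other 8. By this measure libraries 1 and 3 lay outside the controls, and libraries 2 and 4 lay among or near them. On the first principal component of the 13 libraries the 48 h libraries scored 90.3, 14.5, 72.8 and -8.06, against -35.3 to -2.53 in the controls. Totals were 11.1, 10.6, 9.86 and 10.5 M counts at 48 h and 10.3 to 12.3 M in the controls, so depth was similar, and 3 counts, the floor of detection, corresponded to 0.184 to 0.313 CPM at 48 h and 0.236 to 0.369 CPM in the controls. No pair of libraries in either group agreed within sampling noise. Muscle transcripts were present in both groups: 12 slow fibre genes summed to 7904, 25347, 7843 and 56735 CPM at 48 h and to 15090.1 to 150306 CPM in the controls, and 10 fast fibre genes to 18738, 81049.6, 30667 and 41896 CPM and 20901 to 119408 CPM.

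**Figure D1:**
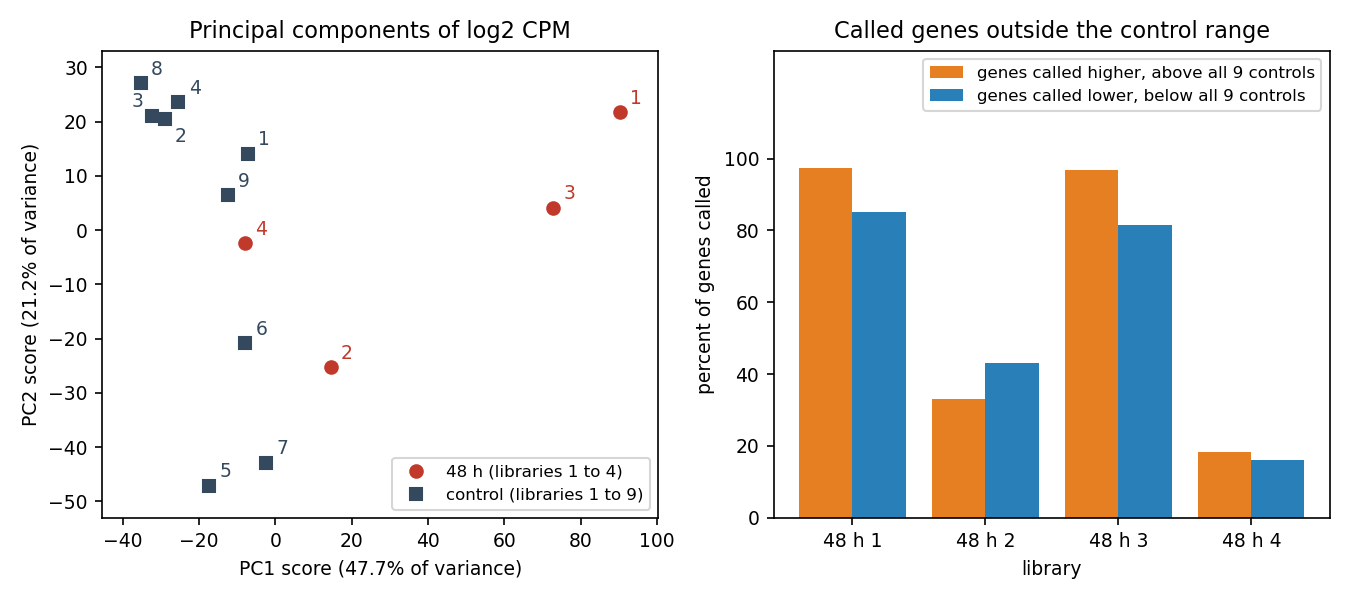
Left, scores of the 4 libraries at 48 h (red circles) and the 9 controls (dark squares) on the first and second principal components of log2 CPM, with library numbers. Right, for each 48 h library, the percent of the genes called higher that lay above all 9 controls (orange) and of those called lower that lay below all 9 (blue), which was 97.4% and 85.2% for library 1, 32.9% and 43.2% for library 2, 96.8% and 81.6% for library 3, and 18.3% and 16.1% for library 4.

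At 48 h, 1906 genes differed from control (20.3% of those tested, edgeR quasi-likelihood test, adjusted p below 0.05). Of these, 1205 were higher (12.8%) and 701 were lower (7.45%). The rises were larger than the falls: 637 genes were higher and 204 lower by at least 2-fold, and 82 were higher and 7 lower by at least 8-fold. The median log2 change over all genes was -0.02. Library 1 lay above all 9 controls in 1174 of the 1205 genes called higher and library 3 in 1167, while library 2 did so in 397 and library 4 in 221. For the 701 genes called lower the numbers below all 9 controls were 597, 303, 572 and 113 in libraries 1 to 4. The calls were made from these same libraries, so these numbers describe the split between libraries and do not test it. All 4 libraries lay above all 9 controls in 133 genes (1.41%) and below them in 77 (0.818%), of which 126 (1.34%) and 61 (0.648%) were also called. The plot of principal components and of called genes by library shows the same order of the 4 libraries.

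The count of calls rested on libraries 1 and 3. Without library 1 the fit called 368 genes and without library 3 it called 694, against 2027 without library 2 and 2732 without library 4. With libraries 1 and 3 as the only 48 h libraries, an alternative chosen after seeing the data, 3448 genes were called, 1848 higher and 1600 lower, and 1826 of the 1906 were among them. A total of 345 genes, 272 higher and 73 lower, kept the call in each of the 13 fits that left out 1 library. All 4 libraries at 48 h also fell into 1 of 5 sets of libraries that expression values and column totals separate across the series, together with 3 of the 9 controls (controls 6, 7 and 9). Against those 3 controls alone 168 genes were called, 159 higher and 9 lower, and with the set as a term 1108 were called, 902 higher and 206 lower. Only 132 of the 1906 calls, 129 higher and 3 lower, were made in those 2 fits and in every fit that left out 1 library. The fit with 3 controls also had fewer libraries, so the choice of controls and their number cannot be told apart there.

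**Figure D2:**
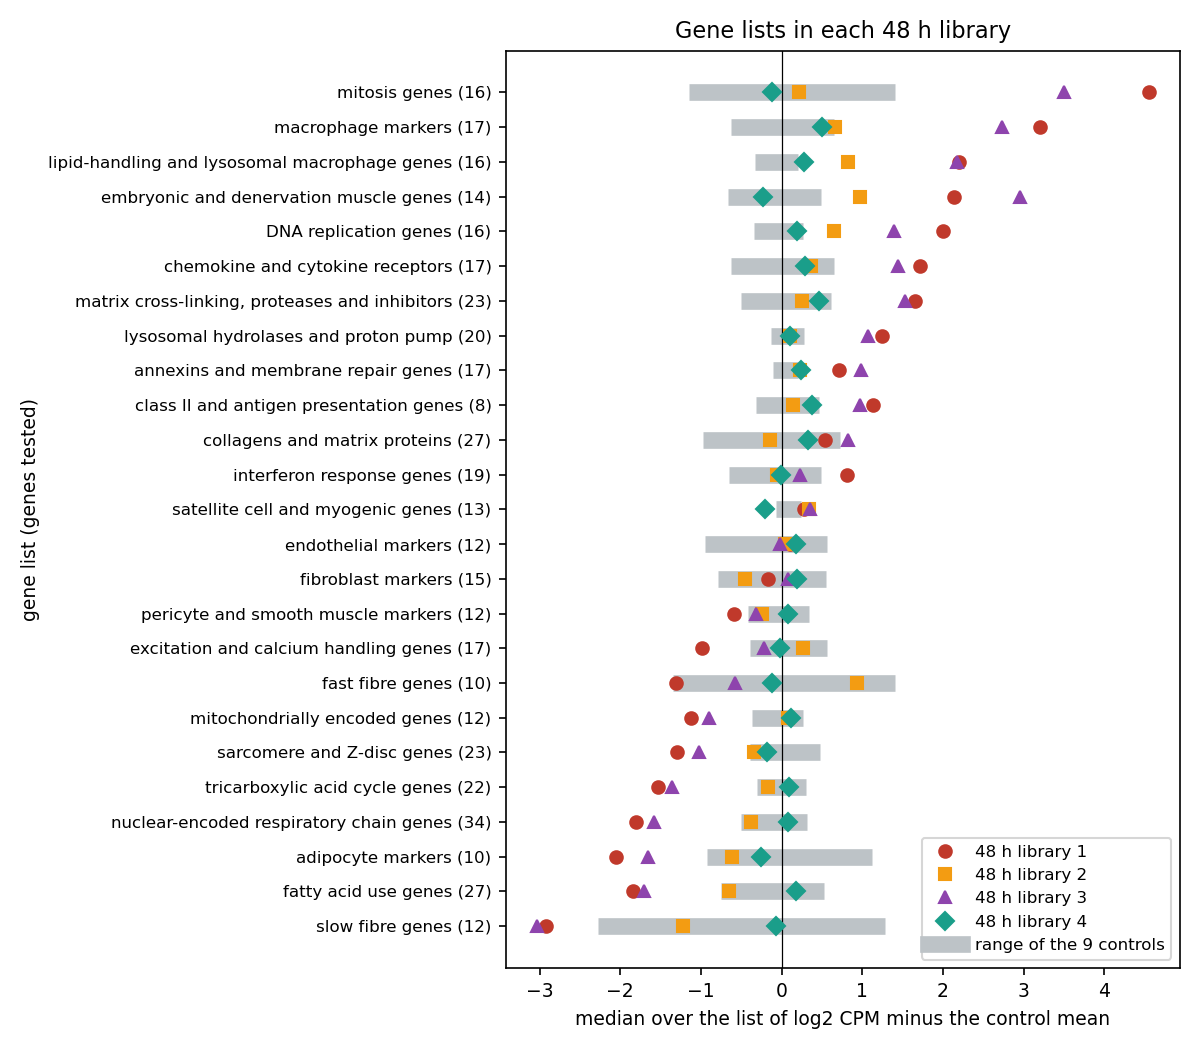
Each row is a gene list, with its number of tested genes. The horizontal axis is the median over the list of log2 CPM minus the control mean, the coloured symbols are the 4 libraries at 48 h, and the grey bar spans the 9 controls. Libraries 1 and 3 (circles and triangles) lie outside the grey bar for the macrophage, mitosis, replication and lysosomal lists on the high side and for the respiratory, tricarboxylic acid cycle, fatty acid and slow fibre lists on the low side, and library 4 (diamonds) lies inside or next to the bar in most lists.

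Macrophage markers were higher at 48 h as a whole. Each of the 17 markers tested, from a list of 20, rose, against 12.8% of all genes, with a median log2 change of 2.13. Their summed level was 1294, 217, 964 and 201 CPM in libraries 1 to 4 at 48 h, against 112 to 249 CPM in the controls, so libraries 1 and 3 lay above every control and libraries 2 and 4 lay within the control range. MSR1, a scavenger receptor that takes up modified lipoproteins, had 38.4, 6.36, 28.9 and 2.51 CPM at 48 h and 0.435 to 2.34 CPM (median 1.47) in controls. All 4 libraries lay above every control, and the log2 fold change was 3.74 ± 0.52 (SE, edgeR adjusted p = 1.06e-05). CD68, a lysosomal glycoprotein of phagocytes, had 44.4, 5.73, 41.9 and 3.67 CPM at 48 h and 1.09 to 5.60 CPM (median 4.00) in controls. Of its 4 libraries, 1 and 3 stood far above the controls, 2 just above them and 4 among them (log2 fold change 2.70 ± 0.44, edgeR adjusted p = 7.91e-05). CD14, the co-receptor for endotoxin, had 49.3, 10.2, 33.8 and 8.50 CPM at 48 h against 2.61 to 8.25 CPM (median 2.95) in controls, and library 4 was just above the highest control (log2 fold change 2.55 ± 0.47, edgeR adjusted p = 3.32e-04). CD163, the receptor that takes up haemoglobin bound to haptoglobin, had 122, 14.5, 64.0 and 13.1 CPM at 48 h and 4.83 to 29.5 CPM (median 13.8) in controls, so that libraries 2 and 4 sat inside the control range (log2 fold change 1.96 ± 0.44, edgeR adjusted p = 0.00217). Leaving out library 1 ended that call (adjusted p = 0.143 without 48 h library 1). LYZ, the bacteriolytic enzyme lysozyme, had 11.5, 2.29, 9.72 and 0.869 CPM at 48 h and 0.110 to 1.33 CPM (median 0.471) in controls, where only library 4 overlapped. MSR1, CD68, CD14 and LYZ kept their calls in every fit that left out 1 library. Of the 17 markers, 8 stayed called without library 1, 12 without library 3, 17 with libraries 1 and 3 alone, and 4 against the 3 controls of the same library set.

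Genes that macrophages use to handle lipid and debris held some of the largest changes in the comparison. Of 16 tested from a list of 19, 11 rose and 2 fell (median log2 change 1.61), against 12.8% and 7.45% of all genes. Of the risers, 6 had all 4 libraries above all 9 controls, against 1.41% of all genes. SPP1, which encodes osteopontin, a secreted adhesive protein that attracts macrophages (chromosome 8, 131077786 to 131085334, Sscrofa11.1), had 1178, 115, 527 and 15.9 CPM at 48 h against 2.21 to 13.5 CPM (median 4.10) in the controls. Every 48 h library exceeded every control, although library 4 did so narrowly, and the log2 fold change was 6.43 ± 0.83 (SE, edgeR adjusted p = 4.22e-06, 5.34 to 6.83 over the fits that left out 1 library). GPNMB, a glycoprotein of phagocytes with loaded lysosomes (chromosome 9, 92037428 to 92071501), had 174, 27.5, 211 and 16.1 CPM at 48 h against 4.66 to 13.2 CPM (median 5.54) in controls. Again no library overlapped (log2 fold change 3.95 ± 0.44, edgeR adjusted p = 6.45e-07). LGALS3, which encodes galectin-3, a lectin that marks damaged lysosomes (chromosome 1, 184478639 to 184496155), had 189, 33.2, 173 and 22.0 CPM at 48 h against 9.46 to 16.8 CPM (median 13.4) in controls, with a log2 fold change of 3.02 ± 0.33 and the second smallest p-value of the comparison (edgeR adjusted p = 5.50e-07). TREM2, a lipid-sensing receptor (chromosome 7, 36465921 to 36471509), had 11.9, 1.67, 9.34 and 0.579 CPM at 48 h and was near the floor in controls, at 0 to 0.549 CPM (median 0.0913). Library 4 exceeded the highest control by a small margin, and the log2 fold change was 5.38 ± 0.74 (edgeR adjusted p = 7.29e-06). ACP5, a tartrate-resistant acid phosphatase of macrophages and osteoclasts (chromosome 2, 70206159 to 70209855), had 47.0, 3.54, 54.5 and 1.35 CPM at 48 h against 0.217 to 2.36 CPM (median 0.922) in controls, so library 4 alone lay among the controls (log2 fold change 4.62 ± 0.57, edgeR adjusted p = 3.10e-06). SPP1, GPNMB, LGALS3, TREM2 and ACP5 kept their calls in every fit that left out 1 library. The members that fell were CD36 and LPL, a fatty acid carrier and a lipase that muscle fibres and adipocytes also express. CD36 had 168, 469.8, 231 and 709.7 CPM at 48 h against 469.8 to 1395 CPM (median 1009) in controls, and its call (log2 fold change -1.31 ± 0.37, edgeR adjusted p = 0.0117) was lost without library 1 or library 3 (adjusted p = 0.112 without 48 h library 1 and 0.0811 without 48 h library 3).

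**Figure D3:**
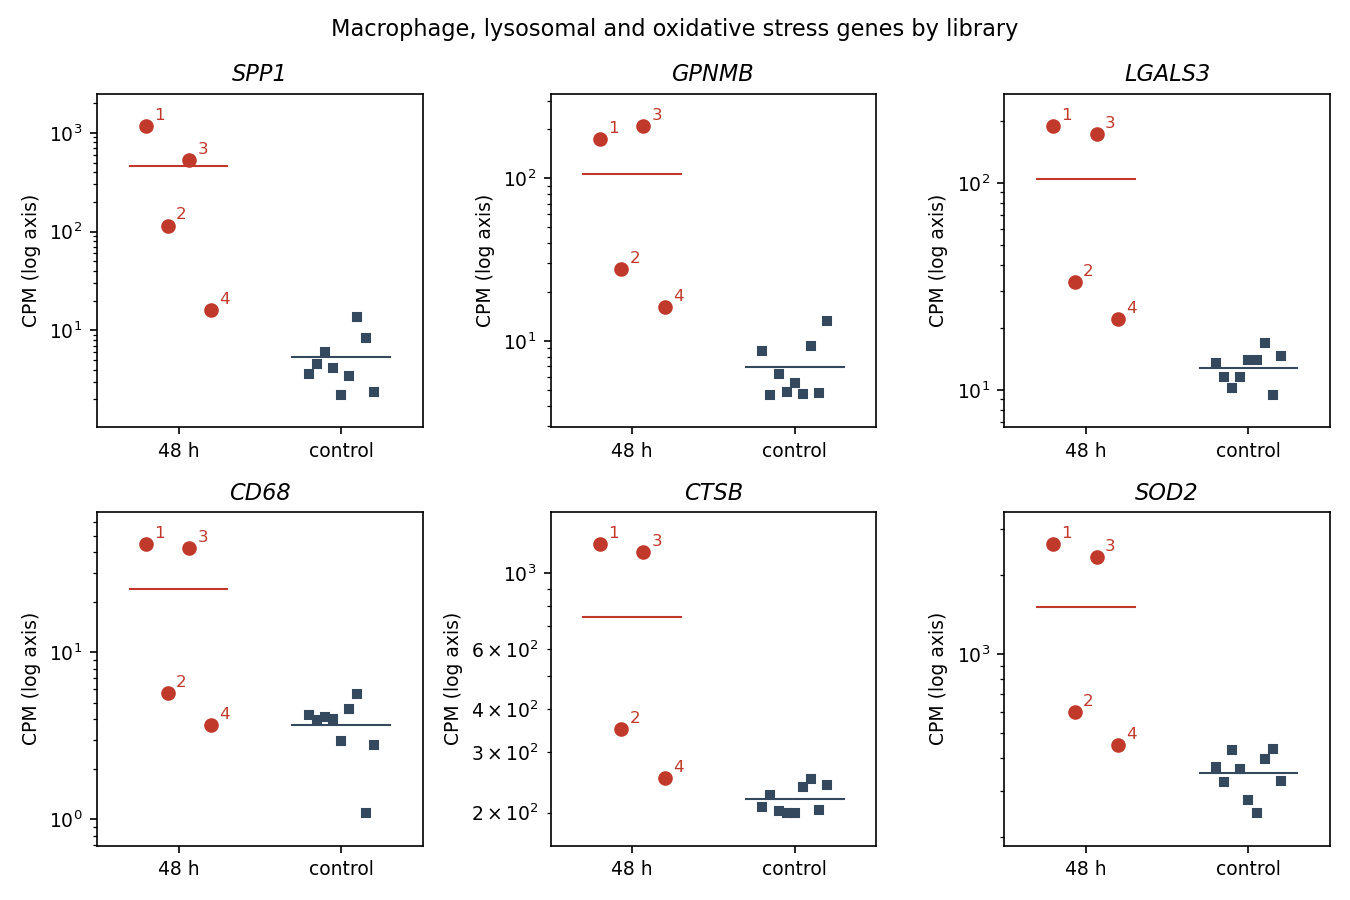
Level in CPM (log axis) of 6 genes in the 4 libraries at 48 h (red, numbered) and the 9 controls (dark squares), with a line at each group's mean. SPP1, GPNMB, LGALS3, CTSB and SOD2 have all 4 libraries at 48 h above all 9 controls, and CD68 has library 4 at 3.67 CPM among the controls.

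Lysosomal enzymes rose in the same libraries. Of 20 tested lysosomal hydrolases and proton pump subunits, 14 were higher and none lower, against 12.8% and 7.45% of all genes, with a median log2 change of 0.75. CTSB, the cysteine protease cathepsin B, was counted among the lipid-handling macrophage genes above and not among these 20. It had 1213, 350.5, 1152 and 252 CPM at 48 h against 199 to 250.5 CPM (median 208) in controls. No library overlapped and the log2 fold change was 1.76 ± 0.26 (SE, edgeR adjusted p = 2.25e-05, kept in every fit that left out 1 library). GUSB, a lysosomal glycosidase, had 60.1, 14.0, 57.3 and 14.7 CPM at 48 h against 6.74 to 11.3 CPM (median 8.90) in controls. CTSH, another cathepsin, had 185, 33.8, 164 and 37.9 CPM and 18.5 to 30.5 CPM (median 25.3). Both GUSB and CTSH were without overlap, with log2 fold changes of 2.02 ± 0.25 and 2.10 ± 0.31 (edgeR adjusted p = 3.10e-06 and 1.87e-05), and both kept the call in every fit that left out 1 library, as did LGMN, the protease legumain. The proton pump subunits ATP6V1A and ATP6V1B2 rose by 0.72 and 0.68 on the log2 scale, but not without library 1 (adjusted p = 0.308 and 0.0920) or, for ATP6V1A, library 3 (adjusted p = 0.169). LAMP1 and LAMP2, structural membrane proteins of lysosomes, did not pass the test (0.37 and -0.19). Without library 1, 5 of the 20 were called higher, without library 3, 7, and against the 3 controls of the same library set, 3. Macrophage markers summed highest in the same libraries, 1 and 3, and their part in the lysosomal values was not tested.

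The other largest rises included genes with little or no signal in control muscle. TCN1, which encodes haptocorrin, a vitamin B12 binding protein (chromosome 2, 11633377 to 11646261), had 38.3, 0.938, 29.5 and 0.193 CPM at 48 h and 0 to 0.314 CPM (median 0) in controls. Library 4 overlapped the controls, whose counts summed to 5, and the fitted log2 fold change was 8.08 ± 1.06 (SE, edgeR adjusted p = 3.10e-06). TREH, the enzyme that splits the disaccharide trehalose (chromosome 9, 45949891 to 45965372), had 21.9, 2.08, 23.5 and 0.579 CPM at 48 h against 0 to 0.110 CPM (median 0.0905) in controls. All 4 libraries exceeded every control, and its p-value was the smallest of all genes (log2 fold change 7.32 ± 0.74, edgeR adjusted p = 1.08e-07). MARCO, a scavenger receptor that binds bacteria and particles (chromosome 15, 24502935 to 24541286), had 52.4, 1.15, 19.1 and 1.26 CPM at 48 h against 0 to 0.769 CPM (median 0) in controls, without overlap (log2 fold change 6.81 ± 0.86, edgeR adjusted p = 3.10e-06). SLC11A1, a metal ion transporter of the phagosome membrane (chromosome 15, 120434100 to 120446396), had 39.9, 3.33, 28.9 and 1.74 CPM at 48 h against 0 to 1.19 CPM (median 0.512) in controls, also without overlap (log2 fold change 5.13 ± 0.72). LY6G6C, a small membrane-anchored protein of the Ly6 family (chromosome 7, 23829790 to 23833610), had 23.9, 2.92, 20.4 and 1.83 CPM at 48 h against 0 to 1.54 CPM (median 0.307) in controls, again without overlap (log2 fold change 5.06 ± 0.65). These 5 genes kept their calls in every fit that left out 1 library. 

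Further large rises came from secreted proteins and enzymes, and here library 4 was no longer separate. AMBN, ameloblastin, a protein known from tooth enamel matrix (chromosome 8, 67381137 to 67394394), had 12.5, 1.98, 13.2 and 0.290 CPM at 48 h against 0 to 0.393 CPM (median 0.220) in controls (log2 fold change 4.95 ± 0.62, edgeR adjusted p = 3.10e-06). ADAM28, a membrane protease of the disintegrin family (chromosome 14, 8375169 to 8438622), had 11.8, 0.521, 8.64 and 0.386 CPM at 48 h and 0 to 0.549 CPM (median 0.205) in controls, so libraries 2 and 4 overlapped the controls (log2 fold change 4.38 ± 0.64). CLU, clusterin, a secreted chaperone that binds cell debris (chromosome 14, 11336585 to 11352569), had 1476, 183, 1152 and 146 CPM at 48 h against 72.5 to 168 CPM (median 114) in controls, with library 4 inside the control range (log2 fold change 2.73 ± 0.34, edgeR adjusted p = 3.10e-06). AMBN, ADAM28 and CLU kept their calls in every fit that left out 1 library. ARG1, the arginase that turns arginine into ornithine (chromosome 1, 32006035 to 32028983), had 36.3, 2.08, 13.9 and 0 CPM at 48 h and 0 to 1.73 CPM (median 0) in controls. The difference lay in libraries 1 and 3, library 4 held no count, and the call (log2 fold change 5.17 ± 1.15, edgeR adjusted p = 0.00173) was lost without library 1 (adjusted p = 0.0617 without 48 h library 1). ARG1 was the only called gene of 14 in the arginine and polyamine list, where 12.8% of all genes were called higher. TCHHL1, named after its values were seen, had no count in any of the 9 controls and 129 counts at 48 h, which makes it at least 61.9-fold higher when the controls are set to a floor of 3 counts over the group. Its call was lost without library 1 (adjusted p = 0.0544 without 48 h library 1).

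Few markers of other leukocytes were tested. Of 6 neutrophil markers tested from a list of 16, 1 rose (MMP9), against 12.8% of all genes. With the library set as a term 5 of the 6 were called higher (median log2 change 3.44, against 1.54 in the reported fit). Against the 3 controls of the same set 0 were called (median 3.36). The neutrophil count therefore depends on the fit. MMP9, a gelatinase stored in neutrophil granules and also made by macrophages (chromosome 17, 48179690 to 48186782), had 11.8, 2.29, 7.33 and 0.966 CPM at 48 h against 0.123 to 0.905 CPM (median 0.326) in controls. All 4 libraries lay above every control, library 4 by a small margin (log2 fold change 3.86 ± 0.64, edgeR adjusted p = 7.83e-05). S100A8, an abundant neutrophil calcium-binding protein, had 0.858, 0.104, 0.309 and 0 CPM at 48 h against 0 to 1.10 CPM (median 0.123) in controls and did not pass the test. The neutrophil markers summed to 43.4, 8.13, 24.9 and 2.80 CPM at 48 h and to 1.37 to 12.3 CPM in the controls. NKG7, a granule protein of natural killer and T cells, was 1 of the 2 lymphocyte markers tested and had 20.8, 4.90, 18.9 and 2.41 CPM at 48 h against 1.36 to 2.91 CPM (median 1.60) in controls. Library 4 overlapped the controls (log2 fold change 2.64 ± 0.41, edgeR adjusted p = 3.98e-05), and the T and B cell receptor genes of that list were not analysed here. None of 3 mast cell markers passed. Of 3 red cell and platelet markers, ITGA2B, the platelet integrin, was lower at 41.4, 54.2, 47.4 and 67.5 CPM at 48 h against 55.8 to 136 CPM (median 78.5) in controls (edgeR adjusted p = 0.00576, and 0.0622 without 48 h library 1). HBB, beta globin, did not pass (log2 change -0.04).

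Few markers of resident cells passed the test. Of 12 endothelial markers only PLVAP, a protein of capillary fenestrae, rose (66.2, 27.8, 60.7 and 32.1 CPM at 48 h, 11.1 to 38.9 CPM (median 21.1) in controls, edgeR adjusted p = 0.00442, and 0.0825 without 48 h library 1). PECAM1, CDH5 and VWF, which mark all endothelium, had log2 changes of 0.21, 0.25 and 0.20 and did not pass. Of 12 genes of activated endothelium, 5 rose, against 12.8% of all genes. In that list 1 was called without library 1, 2 without library 3 and 0 against the 3 controls of the same library set. VCAM1, the adhesion molecule that captures monocytes, had 141, 46.4, 145 and 42.5 CPM at 48 h against 27.4 to 56.4 CPM (median 42.8) in controls, with libraries 2 and 4 inside the control range (log2 fold change 1.14 ± 0.23, edgeR adjusted p = 9.22e-04, kept in every fit that left out 1 library). Of 15 fibroblast markers, MFAP5 and PI16, an elastic fibre protein and a marker of adventitial fibroblasts, were lower, and neither call was stable (for MFAP5 adjusted p = 0.155 without 48 h library 1, 0.0553 without 48 h library 2 and 0.112 without 48 h library 3). The PI16 call was lost without any 1 of 48 h libraries 1, 2 and 3 and controls 1, 3, 6, 8 and 9 (adjusted p = 0.0504 to 0.211). Of 10 adipocyte markers, 4 fell and none rose (median log2 change -0.77), against 7.45% of all genes called lower. ADIPOQ, the adipocyte hormone adiponectin, had 8.71, 18.0, 6.64 and 25.7 CPM at 48 h against 16.8 to 141 CPM (median 69.8) in controls. Libraries 1 and 3 were below every control, libraries 2 and 4 were among them (log2 fold change -2.09 ± 0.52, edgeR adjusted p = 0.00515), and the call was lost without library 1 (adjusted p = 0.0577 without 48 h library 1). PLIN1, CIDEC and DGAT2, which coat or fill the lipid droplet, also fell. None of the 4 adipocyte calls was made without library 1. No Schwann cell marker of 5 and no keratinocyte marker of 4 passed.

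Receptors and ligands of leukocyte signalling rose in part. Of 17 chemokine and cytokine receptors, 9 were higher and none lower, and of 15 cytokines and chemokines, 5 were higher, against 12.8% of all genes. CX3CR1, the fractalkine receptor of monocytes, had 12.1, 1.56, 7.87 and 0.966 CPM at 48 h against 0.246 to 1.78 CPM (median 0.586) in controls (log2 fold change 2.85 ± 0.54, edgeR adjusted p = 3.90e-04). Only library 1 and library 3 exceeded every control. IL10RA, the interleukin-10 receptor chain, had 52.1, 8.33, 42.0 and 9.08 CPM at 48 h against 2.71 to 7.24 CPM (median 4.92) in controls, and none of the 4 libraries overlapped (log2 fold change 2.53 ± 0.48, edgeR adjusted p = 4.58e-04). CCR1, a receptor for CC chemokines, had 34.1, 5.21, 24.7 and 1.64 CPM at 48 h and 0.246 to 6.21 CPM (median 0.781) in controls, with libraries 2 and 4 inside the control range (edgeR adjusted p = 0.00106). CX3CR1, IL10RA and CCR1 kept their calls in every fit that left out 1 library, and CCR2, the receptor for CCL2, did not (adjusted p = 0.163 without 48 h library 1). CCL2 itself, the main monocyte attractant, had 71.5, 19.6, 68.6 and 11.1 CPM at 48 h against 0.435 to 24.5 CPM (median 6.77) in controls (log2 fold change 2.17 ± 0.65, edgeR adjusted p = 0.0176, and 0.144 without 48 h library 1 and 0.107 without 48 h library 3). IL18, an inflammasome cytokine, had 9.93, 7.50, 13.2 and 3.38 CPM at 48 h against 0.326 to 6.15 CPM (median 1.57) in controls, and library 4 alone was inside the control range (log2 fold change 1.93 ± 0.43, edgeR adjusted p = 0.00182, kept in every fit that left out 1 library). OSM, oncostatin M, an interleukin-6 family cytokine, had 10.4, 0.833, 9.96 and 0.676 CPM at 48 h against 0 to 1.46 CPM (median 0.272) in controls, and its call (edgeR adjusted p = 0.00715) was lost without library 1 (adjusted p = 0.0762 without 48 h library 1). IL6 and CXCL8 did not pass (log2 changes 1.51 and -1.14). Without library 1, 3 receptors and 1 cytokine were called higher, and none of either list against the 3 controls of the same library set.

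Several signalling feedback and antigen presentation genes rose. Of 14 NF-kB and SOCS feedback genes, 6 were called, of 8 class II and antigen presentation genes 6 and of 10 complement genes 5, all of them higher, against 12.8% of all genes. Without library 1 the counts were 2, 1 and 1, and without library 3 they were 2, 4 and 1. Against the 3 controls of the same library set none was called in any of these lists. With the library set as a term they were 4, 6 and 1. RELB, a subunit of the noncanonical NF-kB complex, had 22.2, 13.6, 19.3 and 6.76 CPM at 48 h against 4.82 to 8.99 CPM (median 6.02) in controls, and only library 4 overlapped (log2 fold change 1.29 ± 0.28, edgeR adjusted p = 0.00136, kept in every fit that left out 1 library). SOCS3, an inhibitor of interleukin-6 family signalling, had 61.1, 17.6, 129 and 19.0 CPM at 48 h against 5.13 to 38.3 CPM (median 8.96) in controls, and its call (edgeR adjusted p = 0.00779) was lost without library 3 (adjusted p = 0.154 without 48 h library 3). TAP1, the peptide pump of class I presentation, had 46.5, 35.4, 50.3 and 35.6 CPM at 48 h against 19.6 to 28.1 CPM (median 22.1) in controls, without overlap (log2 fold change 0.89 ± 0.18, edgeR adjusted p = 9.05e-04). CFP, the complement protein properdin, which stabilises the alternative convertase, had 22.6, 3.44, 13.7 and 3.19 CPM at 48 h and 0.942 to 3.93 CPM (median 1.56) in controls (log2 fold change 2.47 ± 0.48, edgeR adjusted p = 5.72e-04). TAP1 and CFP kept their calls in every fit that left out 1 library. Of 19 interferon response genes, 3 rose, a share near that of all genes, and the classical targets ISG15, IFIT1 and MX1 did not pass (log2 changes 0.50, 0.02 and 0.48). Of 20 immediate early genes, 2 rose: FOSL1 and IER3, an AP-1 subunit and a stress-induced survival gene, and both calls were lost without library 1 (adjusted p = 0.0525 and 0.0751). FOS, EGR1 and MYC did not pass (log2 changes 0.42, 0.37 and 0.80).

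Cell division genes were among the most widely raised. All 16 mitosis genes tested, from a list of 22, rose (median log2 change 3.20), and 13 of 16 DNA replication genes rose and none fell (median 1.16), against 12.8% of all genes. The mitosis genes summed to 484, 33.2, 249 and 25.9 CPM at 48 h against 15.2 to 55.9 CPM in controls, so the rise lay wholly in libraries 1 and 3. TOP2A, the topoisomerase that untangles sister chromatids, had 94.4, 5.94, 53.9 and 3.09 CPM at 48 h and 0.639 to 11.2 CPM (median 3.89) in controls. Libraries 2 and 4 sat among the controls (log2 fold change 3.19 ± 0.52, edgeR adjusted p = 6.55e-05). PLK1, a kinase of mitotic entry, had 17.7, 0.938, 8.80 and 1.16 CPM at 48 h and 0.362 to 2.04 CPM (median 0.488) in controls, with the same split (log2 fold change 3.28 ± 0.53, edgeR adjusted p = 6.46e-05). CCNB1, cyclin B1, had 35.4, 1.15, 13.4 and 0.869 CPM at 48 h and 0.274 to 3.14 CPM (median 1.07) in controls (log2 fold change 3.43 ± 0.57, edgeR adjusted p = 7.83e-05). MCM3, MCM4 and POLE, replication genes, differed from this split in library 2. MCM3, a subunit of the replicative helicase (chromosome 7, 46084648 to 46104425), had 47.5, 6.46, 19.6 and 3.67 CPM at 48 h against 1.64 to 4.56 CPM (median 2.07) in controls, and only library 4 overlapped (log2 fold change 2.97 ± 0.37, edgeR adjusted p = 3.10e-06). MCM4, a partner subunit, had 56.5, 9.17, 27.6 and 6.08 CPM at 48 h against 1.54 to 4.71 CPM (median 3.48) in controls, and no library overlapped (log2 fold change 2.96 ± 0.37, edgeR adjusted p = 3.10e-06). POLE, the catalytic subunit of DNA polymerase epsilon (chromosome 14, 22798146 to 22852818), had 20.1, 2.08, 10.4 and 0.579 CPM at 48 h against 0 to 1.02 CPM (median 0.543) in controls (log2 fold change 4.18 ± 0.63, edgeR adjusted p = 3.07e-05). TOP2A, PLK1, CCNB1, MCM3, MCM4 and POLE kept their calls in every fit that left out 1 library. Without library 1, 11 of 16 mitosis and 7 of 16 replication genes were called higher, and 9 and 5 were called against the 3 controls of the same library set. Which cells were dividing cannot be read from bulk RNA, and macrophage markers were highest in the same 2 libraries.

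**Figure D4:**
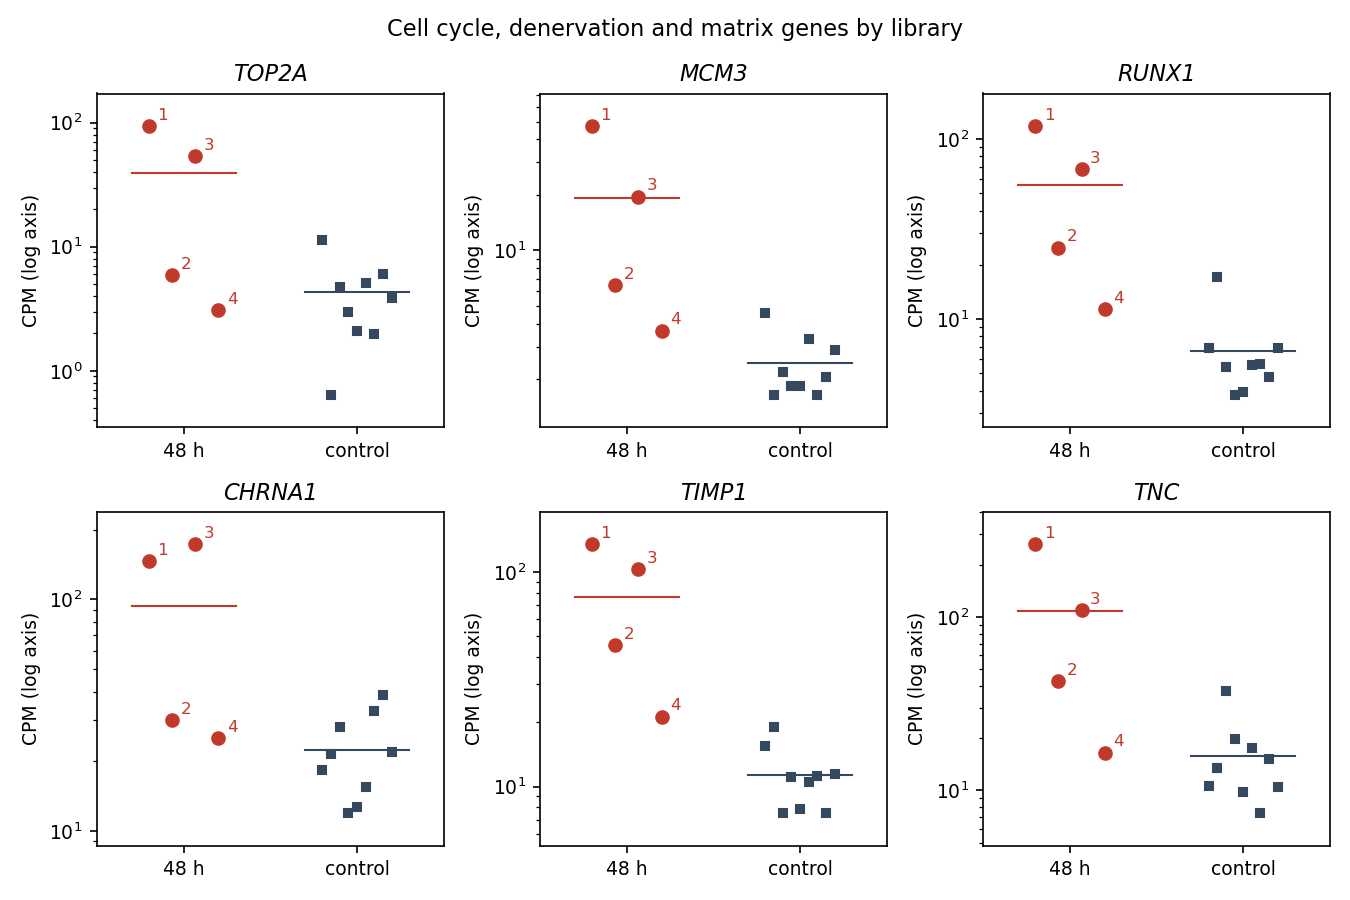
Level in CPM (log axis) of 6 genes in the 4 libraries at 48 h (red, numbered) and the 9 controls (dark squares), with a line at each group's mean. TIMP1 has all 4 libraries at 48 h above all 9 controls, TOP2A and CHRNA1 have libraries 2 and 4 among the controls, and MCM3, RUNX1 and TNC have library 4 among them.

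Genes of denervated and embryonic muscle rose beside few changes in myogenic regulators. Of 14 embryonic and denervation genes, 7 rose and 2 fell, against 12.8% and 7.45% of all genes. Against the 3 controls of the same library set 3 were higher and none lower. RUNX1, a transcription factor induced in denervated fibres and also used by blood cells, had 118, 24.9, 67.9 and 11.3 CPM at 48 h against 3.79 to 17.1 CPM (median 5.57) in controls. Libraries 1, 2 and 3 exceeded every control (log2 fold change 3.05 ± 0.48, edgeR adjusted p = 4.37e-05). CHRNA1, the alpha subunit of the muscle acetylcholine receptor, had 146, 30.0, 173 and 25.1 CPM at 48 h against 11.9 to 38.8 CPM (median 21.5) in controls, with libraries 2 and 4 inside the control range (log2 fold change 2.07 ± 0.36, edgeR adjusted p = 1.66e-04). CHRNG, the fetal gamma subunit, had 5.46, 1.15, 9.72 and 0.483 CPM at 48 h against 0 to 1.33 CPM (median 0.488) in controls (log2 fold change 3.01 ± 0.59, edgeR adjusted p = 5.71e-04). MUSK, the kinase that organises the neuromuscular junction, had 47.0, 12.6, 48.1 and 2.80 CPM at 48 h against 2.77 to 10.9 CPM (median 4.35) in controls, where library 4 lay at the low end of the control range (log2 fold change 2.26 ± 0.44, edgeR adjusted p = 5.72e-04). NCAM1, an adhesion molecule of satellite cells and denervated fibres, had 116, 57.6, 162 and 20.7 CPM at 48 h against 7.49 to 55.7 CPM (median 22.9) in controls, with library 4 inside the control range (log2 fold change 1.88 ± 0.33, edgeR adjusted p = 1.86e-04). RUNX1, CHRNA1, CHRNG, MUSK and NCAM1 kept their calls in every fit that left out 1 library. The embryonic myosins MYH3 and MYH8 did not pass (log2 changes 0.92 and 1.43). Of 13 satellite cell and myogenic genes, NCAM1, MEF2C and MYOD1 rose. MYOD1, the myogenic determination factor, had 44.6, 61.7, 53.3 and 49.2 CPM at 48 h against 10.3 to 60.4 CPM (median 26.6) in controls, a call close to the threshold (edgeR adjusted p = 0.0466), and without library 1 or library 3 the MYOD1 and MEF2C calls were lost (without library 1 adjusted p = 0.123 and 0.266, without library 3 0.138 and 0.223). PAX7, the satellite cell factor, and MYOG, the differentiation factor, had log2 changes of 0.06 and 0.22 and did not pass.

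ANKRD1 and its paralogue ANKRD2 differed from control in opposite directions. ANKRD1, a stress-induced titin-binding protein, had 4682, 350.5, 2339.8 and 91.2 CPM at 48 h against 37.4 to 583 CPM (median 178) in controls (log2 fold change 2.99 ± 0.70, edgeR adjusted p = 0.00302). Both library 1 and library 3 were above every control and library 4 was in the lower part of the control range, and the call was lost without library 1 (adjusted p = 0.113 without 48 h library 1). ANKRD2, found mainly in slow fibres, had 32.6, 27.1, 12.0 and 72.4 CPM at 48 h and 8.73 to 895 CPM (median 306) in controls (log2 fold change -3.21 ± 0.82, edgeR adjusted p = 0.00621). The controls alone spanned more than the difference, all 4 libraries at 48 h lay inside their range, and the call was lost without library 1 (adjusted p = 0.0507 without 48 h library 1).

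Several matrix remodelling enzymes rose, and the fibrillar collagens COL1A1 and COL3A1 did not pass. Of 23 cross-linking enzymes, proteases and inhibitors, 12 rose and none fell, and of 27 collagens and matrix proteins, 3 rose, a share near the 12.8% of all genes. Of the enzymes and inhibitors, 6 were called without library 1, 8 without library 3 and 2 against the 3 controls of the same library set. TIMP1, an inhibitor of matrix metalloproteinases, had 134, 45.6, 103 and 21.1 CPM at 48 h against 7.50 to 18.9 CPM (median 11.1) in controls. All 4 libraries exceeded every control (log2 fold change 2.75 ± 0.43, edgeR adjusted p = 4.64e-05). LOXL4, a lysyl oxidase that cross-links collagen, had 49.9, 17.4, 20.1 and 9.27 CPM at 48 h against 1.63 to 9.31 CPM (median 2.39) in controls, and library 4 lay just below the highest control (log2 fold change 2.91 ± 0.46, edgeR adjusted p = 4.73e-05). ST14, the membrane serine protease matriptase, had 5.21, 1.04, 5.02 and 0.290 CPM at 48 h against 0 to 0.393 CPM (median 0.110) in controls (log2 fold change 3.84 ± 0.64, edgeR adjusted p = 7.65e-05). TIMP1, LOXL4, ST14 and MMP9 kept their calls in every fit that left out 1 library. PLAU and PLAUR, the urokinase activator and its receptor, also rose (log2 fold changes 2.07 ± 0.45 and 2.02 ± 0.45). The PLAU call held in every fit that left out 1 library, and the PLAUR call was lost without library 1 (adjusted p = 0.0967 without 48 h library 1). TNC, tenascin-C, an injury-induced matrix protein, had 262, 42.8, 109.9 and 16.5 CPM at 48 h against 7.36 to 37.4 CPM (median 13.4) in controls, with library 4 in the control range (log2 fold change 2.78 ± 0.55, edgeR adjusted p = 6.18e-04), and the call was lost without library 1 (adjusted p = 0.0537 without 48 h library 1). BGN, the proteoglycan biglycan, rose by 1.15 ± 0.26 on the log2 scale (edgeR adjusted p = 0.00204) and kept the call in every fit that left out 1 library. COL1A1 and COL3A1 had log2 changes of 1.00 and 0.36 and did not pass. Of 15 TGF-beta and activin genes only TGFB1 and LTBP2 rose, and neither call was made without library 1 or without library 3. HAS1, a hyaluronan synthase, had 1.53, 0.417, 3.47 and 0.483 CPM at 48 h against 0 to 0.274 CPM (median 0.0786) in controls, near the floor (edgeR adjusted p = 0.00370), and the call was lost without library 3 (adjusted p = 0.0647 without 48 h library 3).

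Some membrane repair genes also rose. Of 17 annexins and membrane repair genes, 10 were higher and none lower, against 12.8% and 7.45% of all genes, led by S100 proteins that pair with annexins. Without library 1, and likewise without library 3, 5 of the 17 were called higher. S100A11 had 209, 34.4, 155 and 24.4 CPM at 48 h against 13.5 to 25.7 CPM (median 17.8) in controls, and library 4 lay just below the highest control (log2 fold change 2.49 ± 0.32, edgeR adjusted p = 4.63e-06). S100A4 had 31.1, 7.29, 21.7 and 6.18 CPM at 48 h against 0.761 to 4.71 CPM (median 2.67) in controls, and S100A6 had 95.6, 26.1, 116 and 39.8 CPM against 4.46 to 21.7 CPM (median 14.2). Neither overlapped (log2 fold changes 2.65 ± 0.41 and 2.41 ± 0.41, edgeR adjusted p = 3.98e-05 and 1.13e-04). S100A11, S100A4 and S100A6, which leukocytes also express, kept their calls in every fit that left out 1 library. DYSF, the dysferlin that seals fibre membranes, rose by 0.60 ± 0.18 on the log2 scale (edgeR adjusted p = 0.0152, and 0.103 without 48 h library 1 and 0.123 without 48 h library 3). TRIM72, its partner in fibre repair, did not pass the test (log2 change -0.33).

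SOD2, the mitochondrial superoxide dismutase, had 2630.4, 600.3, 2351 and 448 CPM at 48 h against 245 to 434 CPM (median 363) in controls. All 4 libraries exceeded every control (log2 fold change 2.10 ± 0.32, edgeR adjusted p = 3.09e-05). SRXN1, which restores oxidised peroxiredoxins, had 422, 34.2, 180.1 and 19.7 CPM at 48 h against 4.18 to 24.7 CPM (median 7.86) in controls, and only library 4 overlapped (log2 fold change 4.00 ± 0.61, edgeR adjusted p = 3.71e-05). Both kept their calls in every fit that left out 1 library, and 4 of 17 oxidative stress, haem and metal genes rose in all, against 12.8% of all genes. PRDX1, a peroxiredoxin of this list, rose by 0.87 on the log2 scale (edgeR adjusted p = 0.00835). NQO1, GCLC and TXNRD1 did not pass (log2 changes 0.43, -0.08 and 0.32). Without library 1, 2 genes of this list were called higher. Of 24 unfolded protein and amino acid response genes, 7 rose, and 2 were called without library 1. PDIA6, a disulfide isomerase, had 183, 80.5, 142 and 83.6 CPM at 48 h against 50.1 to 78.7 CPM (median 63.5) in controls, without overlap (log2 fold change 0.92 ± 0.16, edgeR adjusted p = 1.77e-04). TRIB3, a pseudokinase induced by amino acid stress, had 12.3, 1.25, 5.79 and 4.15 CPM at 48 h against 0.0977 to 1.90 CPM (median 0.733) in controls, and only library 2 overlapped (log2 fold change 2.84 ± 0.52, edgeR adjusted p = 3.01e-04). Of 17 p53 and cell death genes, 7 rose and 1 fell, with 2 called without library 1 and 1 against the 3 controls of the same library set. CASP1, the inflammasome protease, had 9.50, 1.46, 6.41 and 1.54 CPM at 48 h against 0.488 to 2.01 CPM (median 0.738) in controls (log2 fold change 2.53 ± 0.47, edgeR adjusted p = 3.56e-04). PDIA6, TRIB3 and CASP1 kept their calls in every fit that left out 1 library. CDKN1A, the cell cycle inhibitor p21, had 207, 33.4, 218 and 19.5 CPM at 48 h against 13.9 to 54.7 CPM (median 38.4) in controls, with libraries 2 and 4 inside the control range, and the call (edgeR adjusted p = 0.00287) did not hold without library 1 or library 3 (adjusted p = 0.0774 without 48 h library 1 and 0.0699 without 48 h library 3).

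Many slow fibre genes and some Z-disc genes were lower. Of 12 slow fibre genes, 10 fell and none rose (median log2 change -1.73), against 7.45% of all genes. MYH7, the slow myosin heavy chain, had 1495, 4967, 1016 and 11827 CPM at 48 h against 2451 to 39021 CPM (median 19232) in controls. Libraries 1 and 3 were below every control and libraries 2 and 4 were inside a control range that itself spanned more than an order of magnitude (log2 fold change -1.94 ± 0.65, edgeR adjusted p = 0.0330, and 0.185 without library 1). TNNT1, slow troponin T, had 665, 2276, 693 and 5089 CPM at 48 h against 1187 to 14579.6 CPM (median 6822) in controls, with the same split (log2 fold change -1.83 ± 0.55, edgeR adjusted p = 0.0180). No slow fibre gene was called without library 1, without library 3, with the library set as a term or against the 3 controls of the same set, so the list rests on each of these choices; for TNNT1 the adjusted p was 0.132 without 48 h library 1 and 0.105 without 48 h library 3. The MYH7 call was also lost without any 1 of 48 h library 2 and controls 2, 3 and 8 (highest of these adjusted p = 0.0604). Of 10 fast fibre genes, 1 fell: PVALB, the calcium buffer parvalbumin, with 2.27, 20.9, 3.16 and 4.92 CPM at 48 h and 2.37 to 206 CPM (median 16.1) in controls, and its call was lost without library 1 or library 3 (adjusted p = 0.134 without 48 h library 1 and 0.103 without 48 h library 3). Of 23 sarcomere and Z-disc genes, 9 fell. ACTN2, the Z-disc alpha-actinin, had 987, 3145, 1432 and 5608 CPM at 48 h against 3049.8 to 12008 CPM (median 6992) in controls (log2 fold change -1.33 ± 0.41, edgeR adjusted p = 0.0206, and 0.156 without 48 h library 1 and 0.122 without 48 h library 3). SYNPO2L, an actin-bundling Z-disc protein, had 163, 202, 179 and 201 CPM at 48 h against 237 to 642 CPM (median 339) in controls. All 4 libraries lay below every control (log2 fold change -1.06 ± 0.24, edgeR adjusted p = 0.00177). PDLIM5, another Z-disc protein, had 209, 409, 316 and 599.9 CPM at 48 h against 511 to 1335 CPM (median 799.7) in controls, where library 4 alone overlapped (log2 fold change -1.20 ± 0.26, edgeR adjusted p = 0.00150). SYNPO2L and PDLIM5 were the 2 of the 9 that stayed called without library 1. None of 17 excitation and calcium handling genes passed, and their median log2 change turned from -0.15 to 0.14 when libraries were scaled by column totals.

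Genes of oxidative metabolism were lower in libraries 1 and 3. Of 34 nuclear-encoded respiratory chain genes, 18 fell and none rose (median log2 change -0.74), and the same held for 10 of 22 tricarboxylic acid cycle genes (median -0.61) and 14 of 27 fatty acid use genes (median -0.84), against 7.45% of all genes called lower. The respiratory genes summed to 4105, 11380.0, 4831 and 16055 CPM at 48 h against 10279.6 to 19183 CPM in controls. NDUFB3, a complex I subunit, had 38.7, 113, 45.8 and 143 CPM at 48 h against 76.4 to 282 CPM (median 236) in controls. Libraries 1 and 3 were below every control and libraries 2 and 4 were not (log2 fold change -1.23 ± 0.30, edgeR adjusted p = 0.00430), and the call was lost without library 1 (adjusted p = 0.0617 without 48 h library 1). CYCS, cytochrome c, had 192, 458, 197 and 625 CPM at 48 h against 459 to 823 CPM (median 729) in controls, and library 2 lay just below the lowest control (log2 fold change -0.92 ± 0.22, edgeR adjusted p = 0.00435). Its call was lost without library 1 or library 3 (adjusted p = 0.0667 without 48 h library 1 and 0.0516 without 48 h library 3). MDH2, mitochondrial malate dehydrogenase, had 209, 587, 236 and 799 CPM at 48 h against 568 to 1076 CPM (median 808) in controls (log2 fold change -0.83 ± 0.24, edgeR adjusted p = 0.0145, and 0.147 without 48 h library 1 and 0.120 without 48 h library 3). The fatty acid genes included 3 calls that held without any single library. CPT1B, the carnitine transferase that admits fatty acids to mitochondria, had 31.2, 87.6, 38.1 and 182 CPM at 48 h against 83.3 to 525 CPM (median 375) in controls (log2 fold change -1.86 ± 0.44, edgeR adjusted p = 0.00313). MLYCD, which degrades malonyl-CoA, an inhibitor of that transferase, had 4.11, 3.44, 4.71 and 10.7 CPM at 48 h against 3.19 to 70.4 CPM (median 31.6) in controls, where all 4 libraries lay in the lower part of the control range (log2 fold change -2.30 ± 0.54, edgeR adjusted p = 0.00312). ACSM3, a medium-chain acyl-CoA synthetase, had 1.04, 1.88, 1.39 and 1.64 CPM at 48 h against 1.21 to 27.5 CPM (median 6.35) in controls (log2 fold change -2.58 ± 0.58, edgeR adjusted p = 0.00208). CPT1B, MLYCD and ACSM3 kept their calls in every fit that left out 1 library. Without library 1, 0 respiratory, 0 cycle and 3 fatty acid genes were called lower. With libraries 1 and 3 alone, 33, 21 and 25 were called lower, and against the 3 controls of the same set none was.

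**Figure D5:**
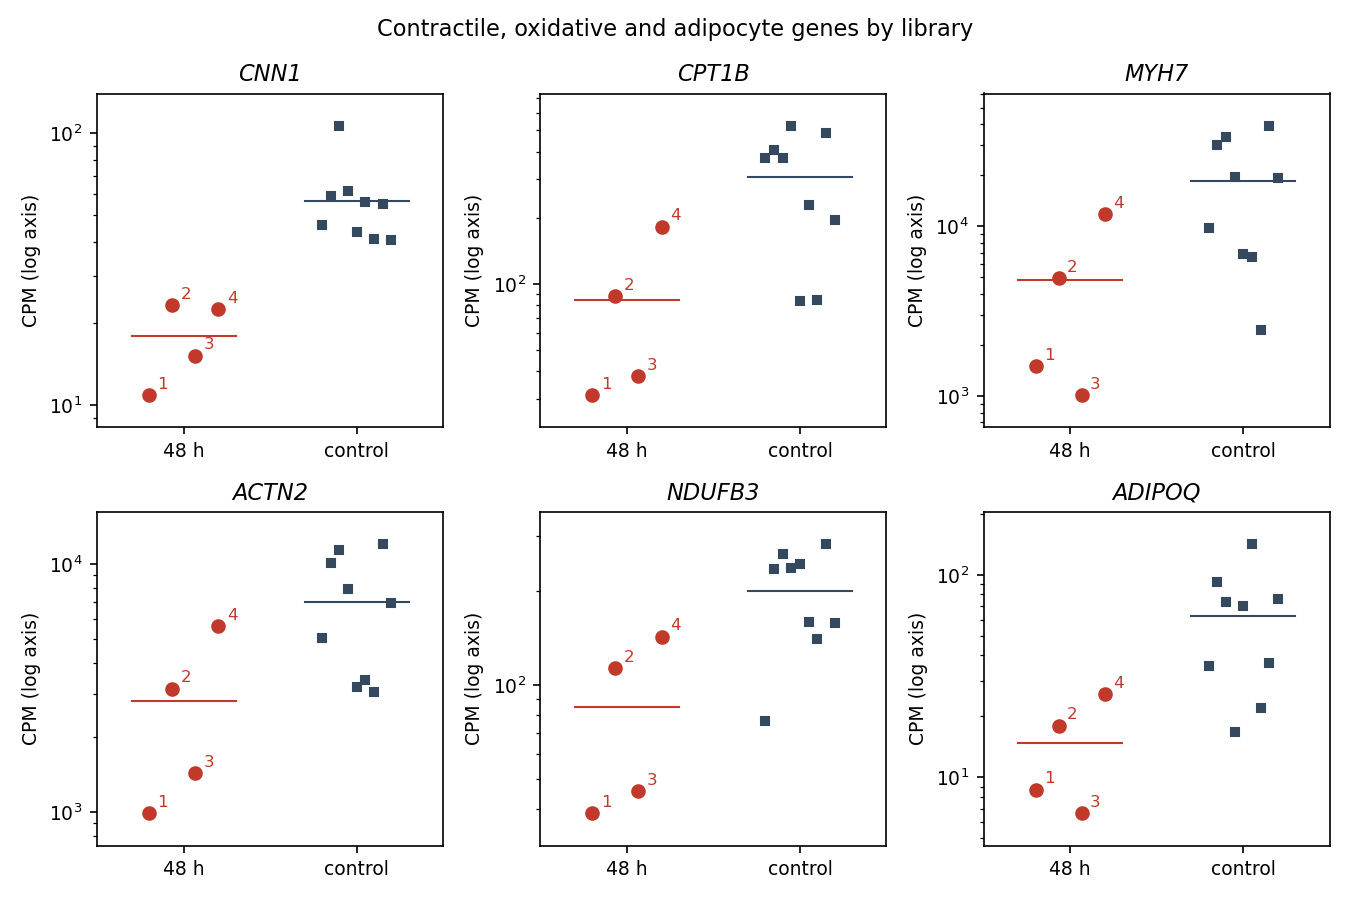
Level in CPM (log axis) of 6 genes in the 4 libraries at 48 h (red, numbered) and the 9 controls (dark squares), with a line at each group's mean. CNN1 has all 4 libraries at 48 h below all 9 controls, while CPT1B, MYH7, ACTN2, NDUFB3 and ADIPOQ have libraries 1 and 3 below them and libraries 2 and 4 among them.

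None of 12 mitochondrially encoded respiratory genes passed (median log2 change -0.38). They include ND6, which was also used to define the library sets. Their summed level was 58226, 136421, 66028 and 149833 CPM at 48 h against 119143 to 199627 CPM in the controls. Libraries 1 and 3 again lay below every control, and with those libraries alone 8 of the 12 were called lower (median -1.04). Of 23 glycolysis genes, 3 rose and 1 fell, against 12.8% and 7.45% of all genes. GAPDH and PYGM, the glyceraldehyde-phosphate dehydrogenase and the muscle glycogen phosphorylase, did not pass (log2 changes -0.02 and -0.00). HK1, the hexokinase of most nonmuscle cells, had 159.6, 37.6, 125 and 30.1 CPM at 48 h against 19.9 to 36.8 CPM (median 31.3) in controls, with library 4 inside the control range (log2 fold change 1.58 ± 0.32, edgeR adjusted p = 7.35e-04, kept in every fit that left out 1 library). PFKFB3, which makes an activator of glycolysis, had 217, 69.7, 192 and 59.9 CPM at 48 h against 7.61 to 65.3 CPM (median 44.3) in controls, and its call was lost without library 1 or library 3 (adjusted p = 0.111 without 48 h library 1 and 0.0673 without 48 h library 3). The median of the glycolysis list turned from -0.05 to 0.18 under scaling by column totals, so its direction is not set.

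The largest falls were of genes that varied widely among the controls. RSPO3, R-spondin 3, which amplifies Wnt signals (chromosome 1, 35985985 to 36066432), had 0.797, 1.98, 1.00 and 4.64 CPM at 48 h against 1.32 to 87.6 CPM (median 18.0) in controls. Libraries 1 and 3 were below every control (log2 fold change -3.83 ± 0.85, edgeR adjusted p = 0.00184), and the call held in every fit that left out 1 library. RFLNA, refilin A, which binds filamin at actin bundles (chromosome 14, 28823571 to 28841281), had 0, 0.104, 0 and 2.41 CPM at 48 h and 0 to 59.2 CPM (median 4.53) in controls, where the lowest control was also at 0 (log2 fold change -4.50 ± 1.21, edgeR adjusted p = 0.00831, and 0.0649 without 48 h library 1 and 0.0502 without 48 h library 3). ETNPPL, a lyase of phosphoethanolamine (chromosome 8, 113363047 to 113384783), had 0.0613, 1.04, 0.386 and 0.386 CPM at 48 h and 0.0786 to 50.5 CPM (median 0.652) in controls (log2 fold change -4.06 ± 1.35, edgeR adjusted p = 0.0300). One control held most of that difference: the adjusted p was 0.158 without 48 h library 1, 0.108 without 48 h library 3 and 0.139 without control library 6, and the log2 fold change was -2.17 without control library 6. PRSS36, a secreted serine protease (chromosome 3, 17345015 to 17354688), had 7.60, 1.15, 7.26 and 4.25 CPM at 48 h and 1.65 to 147 CPM (median 38.3) in controls. GPA33, a cell surface glycoprotein known from intestinal epithelium (chromosome 4, 83904651 to 83943238), had 0.736, 1.04, 0.695 and 3.96 CPM and 1.21 to 29.8 CPM (median 6.25). METTL21C, a lysine methyltransferase of muscle (chromosome 11, 71008854 to 71021640), had 4.84, 2.92, 4.09 and 12.6 CPM and 1.98 to 180.4 CPM (median 31.3). The 3 log2 fold changes were -3.06 ± 0.85, -3.02 ± 0.77 and -2.94 ± 0.80, and the calls were lost without library 1 (adjusted p = 0.0505, 0.0585 and 0.0697) and, for METTL21C, also without library 3 (adjusted p = 0.0554). Against the controls of the same library set the PRSS36 change turned positive and was not called.

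Other falls separated all 4 libraries from all 9 controls, which is how the next 6 genes were chosen. CNN1, calponin 1, an actin-binding protein of smooth muscle (chromosome 2, 70183370 to 70190756), had 10.9, 23.3, 15.2 and 22.5 CPM at 48 h against 40.4 to 107 CPM (median 54.9) in controls (log2 fold change -1.66 ± 0.26, edgeR adjusted p = 3.77e-05). The other smooth muscle genes ACTA2 and MYH11 did not pass (log2 changes -0.32 and -0.50). CNN1 was the only call among 12 pericyte and smooth muscle markers, a share near the 7.45% of all genes called lower. It was also called with the library set as a term and against the 3 controls of the same set. ALDH1A2, which makes retinoic acid (chromosome 1, 113932722 to 114037059), had 0.797, 0.938, 0.540 and 1.16 CPM at 48 h against 1.46 to 15.3 CPM (median 5.12) in controls (log2 fold change -2.91 ± 0.66, edgeR adjusted p = 0.00217). HHIP, which sequesters hedgehog ligands (chromosome 8, 83583735 to 83678368), had 0.797, 1.67, 1.31 and 2.12 CPM at 48 h against 2.19 to 9.19 CPM (median 4.40) in controls (log2 fold change -1.83 ± 0.43, edgeR adjusted p = 0.00314). PHF24 (chromosome 1, 235757499 to 235783053) had 1.29, 1.67, 1.54 and 1.64 CPM at 48 h against 1.98 to 10.9 CPM (median 3.98) in controls (log2 fold change -1.86 ± 0.44, edgeR adjusted p = 0.00329). LPCAT3, which places polyunsaturated fatty acids in phospholipids (chromosome 5, 63707674 to 63746369), had 10.4, 10.3, 8.95 and 10.2 CPM at 48 h against 10.8 to 36.0 CPM (median 26.2) in controls, a narrow spread at 48 h that lay just below the lowest control (log2 fold change -1.21 ± 0.25, edgeR adjusted p = 9.64e-04). CNN1, ALDH1A2, HHIP, PHF24 and LPCAT3 kept their calls in every fit that left out 1 library. Of these, only CNN1 was called against the 3 controls of the same set (adjusted p = 0.0955, 0.0548, 0.331 and 0.220 for the others). PHF24 was not called with the set as a term either (adjusted p = 0.0732). MME, the peptidase neprilysin (chromosome 13, 95018395 to 95122977), had 4.23, 17.2, 14.0 and 18.3 CPM at 48 h against 21.1 to 70.7 CPM (median 39.8) in controls, and its call (edgeR adjusted p = 0.00467) was lost without library 1 (adjusted p = 0.0580 without 48 h library 1).

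Lists for protein turnover, hormones, rhythm and other functions gave mixed shares of calls, where 12.8% of all genes were called higher and 7.45% lower. Proteasome, hyaluronan and wound transcription factor genes, among others, exceeded the share called higher. Clock and heat shock genes, among others, exceeded the share called lower. Of 23 wasting and autophagy genes, 2 rose and 3 fell; TRIM63, the muscle ubiquitin ligase MuRF1, had 1560.5, 502, 913 and 461 CPM at 48 h against 252 to 623 CPM (median 439) in controls (log2 fold change 0.98 ± 0.31, edgeR adjusted p = 0.0245, and 0.400 without 48 h library 1 and 0.0922 without 48 h library 3), and FBXO32, atrogin-1, did not pass (0.48). Of 23 proteasome genes, 6 rose, by at most 0.65 on the log2 scale, and none stayed called without library 1 or with the library set as a term. Of 17 clock genes, ARNTL, CRY1 and NR1D1 fell, and none stayed called without library 1; the list median turned from -0.21 to 0.10 under scaling by column totals. FKBP5, a glucocorticoid-induced chaperone of the steroid receptor, had 123, 121, 102 and 85.0 CPM at 48 h against 86.8 to 272 CPM (median 203) in controls (log2 fold change -0.88 ± 0.22, edgeR adjusted p = 0.00603), and kept the call in every fit that left out 1 library. VEGFA, the main angiogenic factor, had 54.5, 169, 48.6 and 275 CPM at 48 h against 181 to 607 CPM (median 315) in controls, with libraries 1, 2 and 3 below every control (log2 fold change -1.39 ± 0.39, edgeR adjusted p = 0.0121), and its call was lost without library 1 or library 3 (adjusted p = 0.114 without 48 h library 1 and 0.0874 without 48 h library 3). Of 28 cytosolic ribosomal protein genes 1 rose and 1 fell. Heat shock genes gave 1 rise and 2 falls among 12, and the falls numbered 1 to 8 in fits that left out 1 control. Hypoxia genes gave 3 rises and 2 falls among 16, angiogenic factors 1 and 2 among 14, and glucocorticoid-induced genes 1 and 2 among 14. Sterol synthesis genes gave 3 rises and 0 falls among 15, hyaluronan genes 3 and 0 among 8, and wound transcription factors 4 and 1 among 14. Without library 1, 1 hyaluronan gene and 1 wound transcription factor were called higher, and no heat shock gene was called.

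The 48 h libraries were also compared with the nearest earlier time, 24 h. The 24 h libraries were not tested against control here. A gene not called between the times is therefore not shown to have differed from control at 24 h. Against the 4 libraries at 24 h, 1832 genes differed (19.5%), 964 higher at 48 h (10.2%) and 868 lower (9.22%), and the 48 h libraries are shared by both comparisons. Of the genes called against control, 313 were also called against 24 h: 55 were higher at 48 h than both, 38 were lower than both, 103 were higher than control and lower than 24 h, and 117 were lower than control and higher than 24 h. No macrophage marker was called between the times, and SPP1 changed by -0.41 ± 0.92 (SE, edgeR adjusted p = 0.798). Mitosis genes were higher at 48 h than at 24 h in 11 of 16, against 10.2% of all genes. Of 16 replication genes 2 were lower, a share near the 9.22% of all genes, and none was higher. CCNB1 was higher at 48 h than at 24 h by 3.20 ± 0.73 (SE, edgeR adjusted p = 0.00246) on the log2 scale, and MCM3 changed by -0.42 ± 0.44 (SE, edgeR adjusted p = 0.529). CHRNA1 was higher than at 24 h by 2.28 ± 0.47 (SE, edgeR adjusted p = 9.60e-04), MMP9 by 2.41 ± 0.75 (SE, edgeR adjusted p = 0.0207) and ACP5 by 1.89 ± 0.67 (SE, edgeR adjusted p = 0.0428). The matrix genes TIMP1 and LOXL4 went the other way, with TIMP1 at -2.11 ± 0.54 (SE, edgeR adjusted p = 0.00629) and LOXL4 at -2.41 ± 0.56 (SE, edgeR adjusted p = 0.00267), although both remained above control. Respiratory chain genes were higher at 48 h than at 24 h in 20 of 34, fatty acid use genes in 16 of 27 and tricarboxylic acid cycle genes in 12 of 22, while proteasome genes were lower in 14 of 23. Levels near control in libraries 2 and 4 enter these values: without library 4 the comparison with 24 h called 1048 genes, and with libraries 1 and 3 alone 551. The respiratory genes summed to 4105 and 4831 CPM in libraries 1 and 3, and to 11380 and 16055 CPM in libraries 2 and 4. Library set and depth also differed between the times. Only 1 of the 24 h libraries shared the set of the 48 h libraries, and 2 had totals over 20 M counts. With the set as a term 842 genes were called against 24 h. The lists were not counted against 24 h in these other fits.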

How the data were processed

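Per the labels' protocols, total RNA of flash-frozen muscle was isolated with Trizol and checked on an Agilent Bioanalyzer, and NEBNext Ultra libraries were sequenced as 150 bp read pairs (HiSeq-2500). The submitters' processing notes name FastQC and MultiQC for read quality, Trimmomatic, HISAT2 2.2.1, HTSeq and the genome Sscrofa11.1. The sources used here do not give the annotation release or the strand setting. The deposited values are raw counts per gene symbol, 9418 rows by 37 columns, each column matched to a sample by its title. The highest count of every row was at least 101, so rows were selected before deposit by a rule that is not given. Reads of overlapping or antisense genes and of near-identical copies could not be told apart.

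Counts were analysed in R 4.3.3 with edgeR 4.0.16 and limma 3.58.1. TMM factors were computed, filterByExpr retained 9411 genes, and a robust quasi-likelihood fit used all 37 libraries with group as the only factor. Contrasts were 48 h against control and 48 h against 24 h, with Benjamini-Hochberg adjustment over all genes and a threshold of 0.05. "Called" means past that threshold. Errors of log2 fold changes are standard errors from the fit to all 37 libraries. The spread behind them and behind the p-values is therefore pooled over all groups, not taken from the 48 h and control libraries alone. A fit to those 2 groups alone called 932 genes against control. Overlap compares CPM of single libraries. Floors of 3 counts cover counting error only. Gene spans were taken from a Sscrofa11.1 gene table, which held 8936 of the tested genes.

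Genes were named by rule. For called genes whose higher group averaged at least 5 CPM, these were the 12 largest rises and 8 largest falls, the 8 and 6 largest without overlap and the 8 smallest p-values, and in each of 53 lists the 4 smallest p-values. Other list members stand as examples. The members and lists were chosen with earlier results of these data known. Library sets were defined from expression after the data were seen: libraries with totals over 20 M formed 1 set, then those over 8 CPM of C1QBP, then those under 4 CPM of NDUFAF8, and ND6, split at 32 CPM, parted the rest. Set membership is therefore no label of the study, and these 3 genes are not reported singly as results. ND6 is mitochondrially encoded, so the values of that gene list include it. The fits were tested on simulated counts. Alternatives were a replicate block, a test against 2-fold, each library left out, limma-voom, fits to fewer libraries, DESeq2 1.42.0, and other size factors and filters.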

Additional observations from a re-analysis of the deposited data

Results flagged for a closer look

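In 62 groups of values (the named largest and steadiest changes, at 48 h and in controls), 13 had 1 library set apart from the rest by more than Dixon's 95% critical value. That value would set apart about 1 group in 20 by chance only if the values were normally distributed. These were CPM on a linear scale, of genes named for large or steady changes, and every control set apart was the highest. The 13 groups can therefore not be compared with a chance rate.

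Of the 13, 6 concern a control of a gene that rose. TCN1 had 0.314 CPM in control 1, with the next control at 0.109 CPM. MARCO had 0.769 CPM in control 7, against 0.362 CPM in the next. TREM2 and LY6G6C were also highest in control 7, at 0.549 CPM (next 0.195) and 1.54 CPM (next 0.586). ARG1 had 1.73 CPM in control 2 (next 0.634), and MMP9 had 0.905 CPM in control 9 (next 0.439). Each of these controls still lay below libraries 1 and 3 at 48 h.

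Genes that fell held single high controls. RFLNA had 59.2 CPM in control 8 (next 27.7) and METTL21C 180.4 CPM in the same control (next 83.5). ETNPPL had 50.5 CPM in control 6, with the next control at 9.74 CPM. CNN1 had 106.7 CPM in control 3, with the next at 61.5 CPM.

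At 48 h, library 4 stood apart in RFLNA with 2.41 CPM (next 0.104) and in GPA33 with 3.96 CPM (next 1.04), in both cases nearer to the controls than the other 3 libraries. LPCAT3 was lowest in library 3 with 8.95 CPM, the next being 10.2 CPM.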

How the results depend on the processing

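Against control, 1906 genes were called. The DESeq2 and upper-quartile size factors, no filter or a stricter one, DESeq2 and limma-voom gave 1614 to 2217 calls. Scaling by column totals gave 3348 (3050 higher, 298 lower) and moved the median over all genes to a log2 change of 0.34. A test against a 2-fold change gave 195 (189 higher), a fit to the 2 groups compared 932 (726 higher, 206 lower). Fits that left out 1 library ranged from 368 (without 48 h library 1) to 2732 (without 48 h library 4), with 694 without 48 h library 3. Of 3 alternatives chosen after seeing the data, 48 h libraries 1 and 3 alone gave 3448, the library set as a term 1108 and controls of the same set 168. The share of calls that were higher was 63.2% in the reported fit, 91.1% with column totals, 96.9% against 2-fold, 77.9% with the 2 groups, 81.4% with the set term and 94.6% with controls of the same set. No gene called in any of these fits and in the reported one changed direction. For genes called only in the reported fit, direction was checked only among the 267 genes named by rule or as examples. Of these, PRSS36 and ARNTL turned to 0.56 and 0.37 against controls of the same set, where 163 of the 1906 calls were kept. The cause was not tested.

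Against 24 h, 1832 genes were called. The count was 37 against 2-fold, 903 with the 2 groups, 551 with 48 h libraries 1 and 3 alone, 842 with the set term, and 1048 (without 48 h library 4) to 2442 (without 48 h library 1) with 1 library left out.

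With the replicate block the counts were 1798 against control (935 higher, 863 lower, 52.0% higher) and 1842 against 24 h, and 1296 of the 1906 calls were shared. Deviations of same-numbered libraries of the 2 groups correlated at 0.207, -0.031, -0.149 and 0.127, and only libraries 1 and 2 correlated best with their own number, so the numbers were not taken as pairs.

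Depth was 9.86 to 11.1 M counts at 48 h, which set the floor there at 0.184 to 0.313 CPM. Differences in genes with both groups near that floor could be missed.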
